A study of Sus scrofa with 2 samples.

Results

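A set of 253 barcodes from the endometrium of a pregnant sow was described, chosen for transcripts of CRYGS, the uroplakins UPK2 and UPK1B, TNNI2 and MAL. The barcodes were also chosen for few transcripts of SMPDL3A and PAG6. UMIs of this pair are called glycoprotein UMIs for short, though only PAG6 is named as a pregnancy-associated glycoprotein. The rule took barcodes with at least 500 UMIs (unique molecular identifiers, 1 per captured transcript) and at least 300 detected genes, with at least 4 UMIs over the 5 genes and at most 2 over SMPDL3A and PAG6. It was met by 253 of the 8668 barcodes of that library that passed the depth limits (2.92%, exact Clopper-Pearson 95% interval 2.57 to 3.30), and 19465 barcodes passed them in the whole series. Since the 7 genes chose the members, their values are a description and carry no test.

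The series compared endometrium of 2 Yorkshire sows aged 3 years by 10x Genomics 3′ single-cell RNA sequencing. The EIS sow stood for implantation that succeeded and was sampled 30 days after artificial insemination. The EL sow stood for embryo loss, with an earlier abortion and then 3 inseminations that failed, and her stage at sampling was not given. Tissue was taken from both uterine horns of a sow, digested with collagenase and a second protease and depleted of red cells, steps that can set which cells were recovered. With 1 animal and 1 library for either group, effects of the animal, her pregnancy, her stage and the library cannot be told apart, and no test between groups exists. All intervals below are exact, at 95%, and cover counting error only.

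Uroplakins are membrane proteins that assemble into plaques on the apical surface of the bladder lining, and MAL is a raft protein that carries cargo to the apical membrane of polarised epithelia. CRYGS encodes a crystallin, first known as a structural protein of the eye lens, and TNNI2 encodes the inhibitory troponin subunit of fast skeletal muscle. SMPDL3A encodes a phosphodiesterase related to acid sphingomyelinase, and PAG6 a pregnancy-associated glycoprotein of the trophoblast, the outer cell layer of the embryo that meets the uterus. No sequence of these genes was held in the files used here, so none is shown.

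The label under which the barcodes were grouped, cells with both CRYGS and uroplakins, held for a minority. CRYGS and at least 1 of UPK2 and UPK1B were detected in 63 of the 253 barcodes, out of 93 with CRYGS and 208 with UPK2 or UPK1B. CRYGS and UPK2 were both detected in 37 of the 253 barcodes, CRYGS without UPK2 in 56, UPK2 without CRYGS in 129 and neither in 31. All 5 genes were detected in 5 barcodes, 4 of them in 79, 3 in 96, 2 in 59 and 1 in 14. No barcode with more than 4 CRYGS UMIs held a UPK2 UMI. The set is therefore described by its rule and by the clusters its members fell into, and it is given no cell type name.

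**Figure D1:**
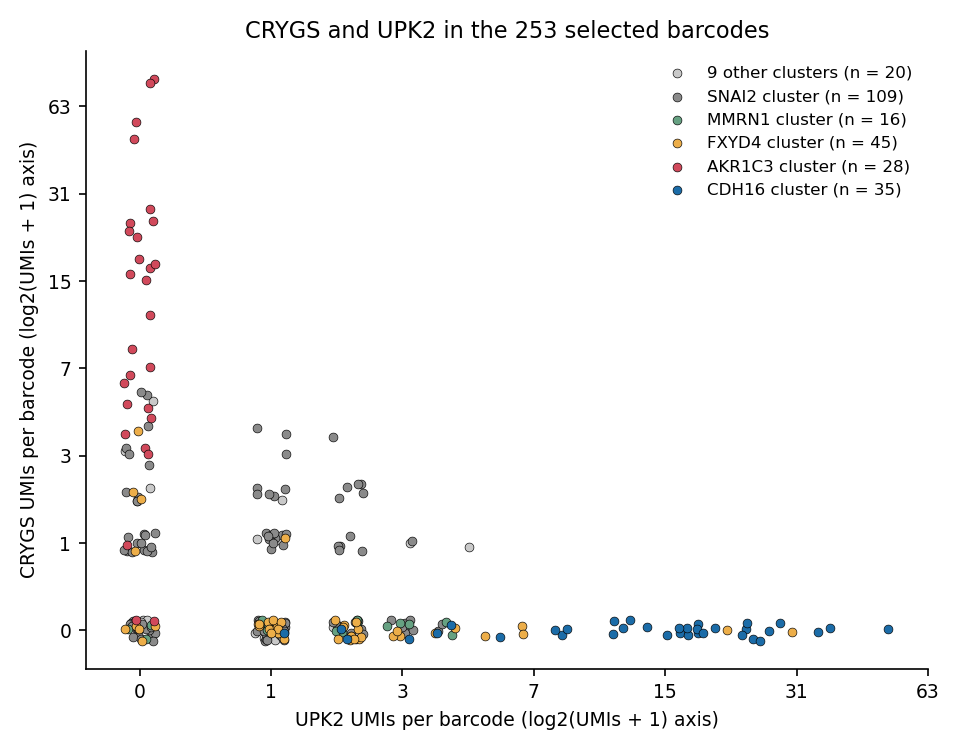
UMIs of UPK2 (x axis) and CRYGS (y axis) in each of the 253 selected barcodes, both as log2(UMIs + 1), with a small seeded jitter and coloured by the cluster a barcode fell into. The 28 barcodes of the AKR1C3 cluster lie on the axis where UPK2 is 0 and the 35 of the CDH16 cluster on the axis where CRYGS is 0.

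MAL gave the largest part of the score, 2454 of 5307 UMIs. It was detected in 231 members (lowest 0, median 3, highest 116 per barcode). UPK2 was detected in 166 members with 870 UMIs (lowest 0, median 1, highest 55). TNNI2 was detected in 138 members with 732 UMIs, and UPK1B in 133 with 610, with a highest value of 39 for either gene. CRYGS was detected in 93 members with 641 UMIs (lowest 0, median 0, highest 77). SMPDL3A and PAG6 together gave 154 UMIs, 105 of them SMPDL3A, with 0 in 143 members, 1 in 66 and 2 in 44.

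Most members lay near the limit. A score of exactly 4 was held by 65 barcodes, and 103 more with a score of 3 lay just outside. Scores of 4 to 7 were held by 158 members, scores of at least 8 by 95 and of at least 40 by 33, up to a highest score of 211. At the other limit, 44 members had 2 glycoprotein UMIs, and 19 barcodes with a score of at least 4 and 3 such UMIs lay outside. Depth ran with the score: median total UMIs were 3005 for scores of 4 to 7 and 21014 for scores of at least 40. Over all members the total was 705 UMIs at the lowest, 3534 at the median and 65499 at the highest, against a median of 2179 in the other 8415 barcodes.

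The EIS library held 36069473 UMIs over 8848 barcodes and the EL library 43302286 over 10936, with medians of 2245 and 2301 UMIs in the kept barcodes. In the EL library 50 of 10797 barcodes met the same rule (0.463%, 0.344 to 0.610), and MAL was the 1 gene of the 5 detected in 46 of them. Of their 230 UMIs over the 5 genes 223 were MAL, 4 UPK2, 2 CRYGS, 1 UPK1B and 0 TNNI2, and no score exceeded 8. Over all kept EL barcodes UPK2 was at 2.95 CPM (UMIs scaled to a library of 1000000, 2.46 to 3.51) and CRYGS at 2.65 (2.19 to 3.18), against 61.5 (58.9 to 64.1) and 36.95 (34.99 to 39.00) in EIS. No EL barcode had a score of at least 4 together with at least 3 SMPDL3A or PAG6 UMIs, and 548 EIS barcodes did. UPK2 or UPK1B was thus detected in 3 of the 50 EL barcodes, and in 208 of the 253 EIS members. Of the barcode sequences, 27 occurred in both libraries, and 1 of these was a member.

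Clustering of the 8668 kept EIS barcodes without the 7 rule genes put the members in 14 of 28 clusters. Clusters are named here after a gene that led them, and those with at least 10 members are described, a limit set after the values were seen. A cluster led by SNAI2, ACTG2 and MEST, among others, held 109 members (43.1%, 36.9 to 49.4) among its 865 barcodes. A cluster led, beside the rule's own genes, by FXYD4, DEFB1, THBS1 and PTGES held 45 among 831. A cluster of 40 barcodes led by TMEM213, RGN, CDH16 and FXYD4 held 35 and is called the CDH16 cluster, since TMEM213 came mainly from 7 of its barcodes, described further on. A cluster of 113 barcodes led by AKR1C3, AQP8, PGLYRP1 and IGFBP2 held 28. A cluster led by MMRN1, PDPN and LYVE1 held 16 among 361, and 9 further clusters held the last 20.

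The members of the CDH16 and AKR1C3 clusters had the highest median depth, and these are called the deep clusters. Single members ran from 729 to 37645 UMIs in the CDH16 and from 3286 to 65499 in the AKR1C3 cluster, and the deepest FXYD4 members had 25118 and 37393. Their 63 members were 24.9% of the set and gave 62.1% of its UMIs. Median totals were 18634 UMIs in the CDH16 cluster and 17567.5 in the AKR1C3 cluster, but 3236 in the SNAI2, 2357 in the FXYD4 and 2768 in the MMRN1 cluster. Among the 15 nearest neighbours of a barcode, the median number of other members was 14 in the CDH16 cluster, 12 in the AKR1C3 cluster, 7 in the SNAI2, 5 in the FXYD4 and 2 in the MMRN1 cluster, where members made up 2.92% of all barcodes. All 35 CDH16 and all 28 AKR1C3 members stayed together, in separate clusters, at resolutions of 0.5 and 2.0, with another random seed, with all genes and with components rounded more coarsely. After thinning each barcode of at least 1000 UMIs to 1000, 67 of 6750 met the rule (0.993%). Of these 67, 23 were CDH16 members, 1 was an AKR1C3 member and 25 were other members. The other 18 had not met the rule before thinning.

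**Figure D2:**
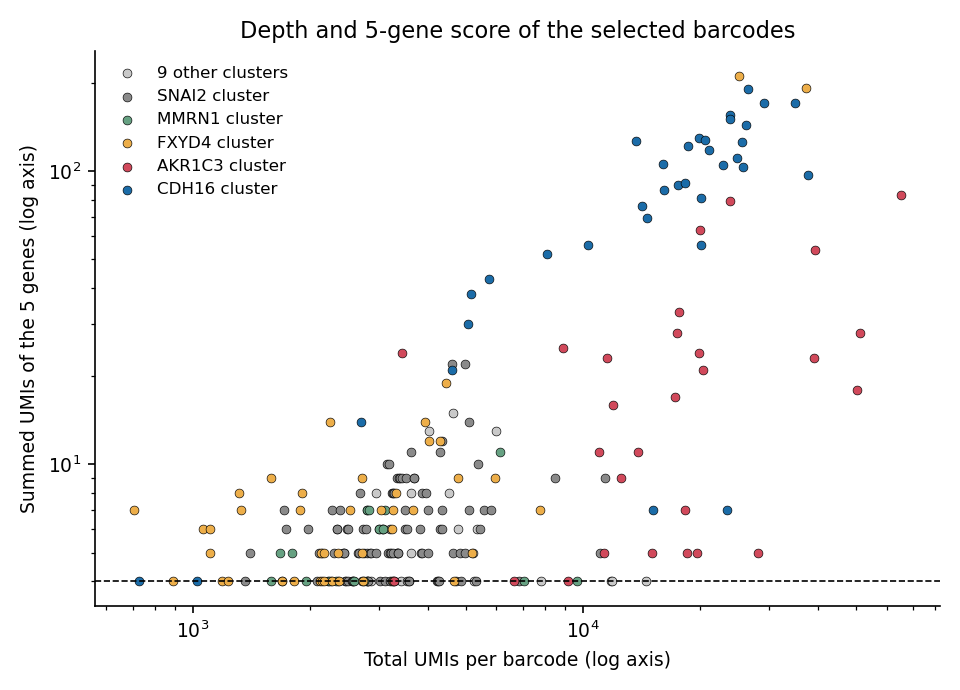
Summed UMIs of CRYGS, UPK2, UPK1B, TNNI2 and MAL (y axis, log) against total UMIs (x axis, log) in the 253 selected barcodes, coloured by cluster, with a dashed line at the minimum of 4. Members of the SNAI2, FXYD4 and MMRN1 clusters crowd just above the line at lower totals than the deep clusters, and most CDH16 members lie at scores above 40.

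The CDH16 members carried uroplakins and no CRYGS. UPK2 was detected in 35 of 35 (lowest 1, median 16, highest 55 UMIs, 947 CPM) and TNNI2 in 35 (lowest 1, median 13, highest 39, 795 CPM). MAL was detected in 33 (median 48, highest 112, 2633 CPM) and UPK1B in 33 (median 9, highest 39, 644 CPM). CRYGS had 0 UMIs, where 3 UMIs would be 4.89 CPM and a share of 8.57% of barcodes.

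Both other uroplakin genes that could be measured, which the rule did not use, were present in the same barcodes. UPK3A, the plaque partner of UPK1B, was detected in 29 of 35 (lowest 0, median 10, highest 22 UMIs, 474 CPM), against 18.6 CPM in the other kept barcodes. UPK1A, the partner of UPK2, was detected in 27 (median 2, highest 6 UMIs, 114 CPM), against 3.53 CPM. Those are 25.5-fold (95% interval 22.1 to 29.3) and 32.3-fold (95% interval 23.7 to 43.7) higher. In the AKR1C3 members UPK3A and UPK1A had 0 UMIs.

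The AKR1C3 members carried CRYGS and no UPK2. CRYGS was detected in 26 of 28 (lowest 0, median 13, highest 77 UMIs, 885 CPM). UPK2 had 0 UMIs, where 3 UMIs would be 5.13 CPM and a share of 10.7% of barcodes. MAL was detected in 19 (median 2, highest 17, 137 CPM), UPK1B in 10 (highest 6, 47.9 CPM) and TNNI2 in 5 (highest 3, 13.7 CPM). CRYGS so made up 81.7% of the score there, and MAL with TNNI2 and the uroplakins all of it in the CDH16 cluster.

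Of the clusters with lower median depth, UMIs of both CRYGS and UPK2 were found among the SNAI2 and the FXYD4 members. Among the MMRN1 members only UPK2 of the pair was found. In the SNAI2 cluster's members CRYGS was at 251 CPM, UPK2 at 287, UPK1B at 184, TNNI2 at 249 and MAL at 800.3, and CRYGS and UPK2 were both detected in 31 of the 109. In the FXYD4 cluster's members UPK2 was at 717 CPM, MAL at 1955 and CRYGS at 56 (26.9 to 103). CRYGS was detected in 5 of these 45 members, and CRYGS and UPK2 together in 1. In the MMRN1 cluster's members UPK2 was at 550.5 CPM, MAL at 606, and CRYGS had 0 UMIs.

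**Figure D3:**
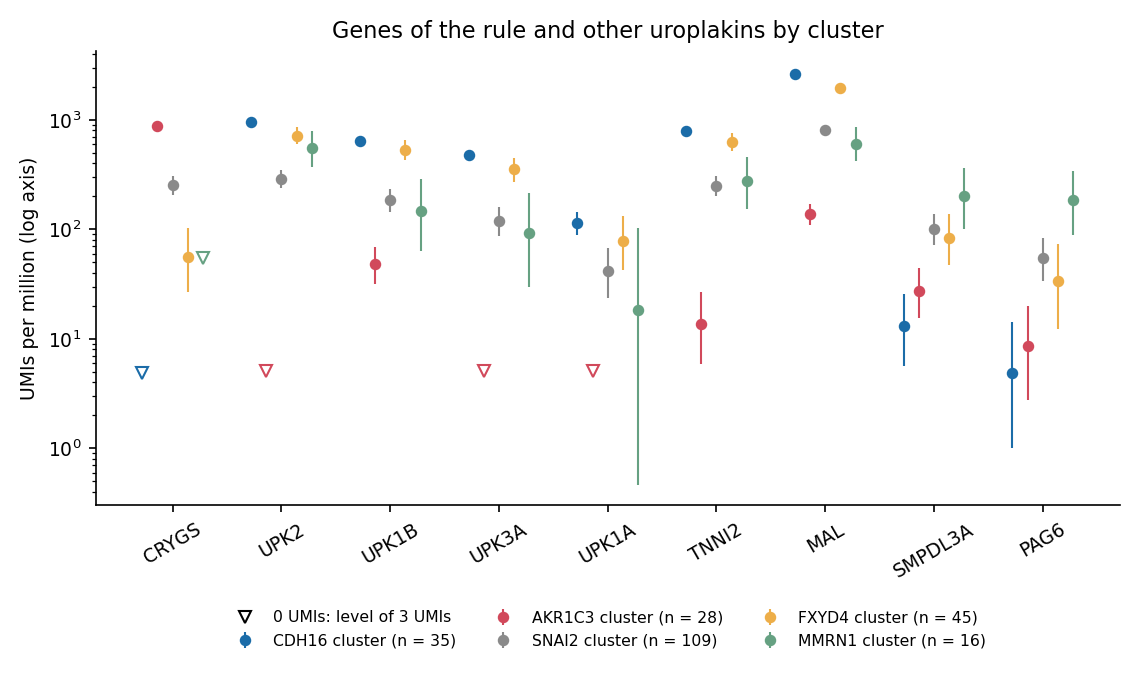
Level (CPM, log axis) of the genes of the rule and of UPK3A and UPK1A in the members of 5 clusters, with exact 95% Poisson intervals, and an open triangle at the level of 3 UMIs where none was found. The CDH16 cluster is highest for each uroplakin and has no CRYGS, and the AKR1C3 cluster is highest for CRYGS and has no UPK2, UPK3A or UPK1A.

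Transcripts of these genes also occurred in clusters with few members. A second cluster led by FXYD4, here with THRSP and SMPDL3A, had 845 barcodes, 8 members and a median of 4984 UMIs. UPK2 was detected in 45.21% of its barcodes, UPK1B in 34.32%, MAL in 66.04% and CRYGS in 18.7%. A cluster led by PAG6, CTSD and SMPDL3A had 503 barcodes, 4 members and a median of 3414 UMIs. In it CRYGS was detected in 32.41% of barcodes, UPK2 in 22.86% and MAL in 45.92%. Shares were lower in the clusters given next, led by genes of other cell types. In a cluster led by DYNLRB2 and SNTN, genes of ciliated cells, with 323 barcodes and a median of 6994 UMIs, UPK2 was detected in 9.29% of barcodes (6.35 to 13.0), CRYGS in 4.64% (2.62 to 7.54) and MAL in 0.929% (0.192 to 2.69). In a cluster led by CCL5, CD8A and NKG7, with 430 barcodes and a median of 1814.5 UMIs, UPK2 was detected in 0.465%, TNNI2 in 5.81%, MAL in 1.16% and CRYGS in 0, where 3 barcodes would be 0.698% and the exact upper limit was 0.854%. Thinned to 2000 UMIs, UPK2 was detected in 81.8% of CDH16 members, 71.1% of the whole CDH16 cluster and 1.64% of the DYNLRB2 barcodes. CRYGS was then detected in 64.3% of AKR1C3 members, 21.8% of the whole AKR1C3 cluster and 1.64% of the DYNLRB2 barcodes. The rule chose the members on these genes, so the members' shares were set in part by it.

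In the FXYD4 cluster 2 members stood apart from the others in depth and score. These had scores of 211 and 192 at 25118 and 37393 UMIs, where the other 43 reached at most 7757 UMIs and a score of 19. The pair gave 43% of that group's UPK2, 62.1% of its UPK1B, 58.7% of its UPK3A and 64.5% of its MAL. Without them UPK2 was at 629 CPM in the group, UPK3A at 224 and MAL at 1069. SLPI, a secreted protease inhibitor of the uterine glands, was at 1024 CPM in the pair and at 166934 in the other 43.

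Markers of other cell types differed between the clusters. Over the 10 measured gland markers the summed level was 272236 CPM in the SNAI2 members, 296409 in the MMRN1 members and 166165 in the FXYD4 members, against 248359 in the other kept barcodes. It was 23324 CPM in the AKR1C3 members and 3189 in the CDH16 members, where FOXA2, SAL1 and PAX8 were at 0. The low sum of the AKR1C3 members did not hold for each marker. AQP8 was at 706 CPM in them against 126 in the other kept barcodes, SULT2A1 at 1142 against 200 and MSX1 at 144 against 114. SPP1 was also higher in the AKR1C3 members, and SLPI, ACP5, UABP-2, FOXA2, SAL1 and PAX8 were lower. SLPI alone was at 182399 CPM in the SNAI2, 8641 in the AKR1C3 and 2066 in the CDH16 members, against 159700 in the other kept barcodes. The 6 measured stromal markers summed to 13098 CPM in the SNAI2 members, 1960.4 in the FXYD4, 917 in the MMRN1, 97.8 in the CDH16 and 76.9 in the AKR1C3 members, against 9217 in the other kept barcodes. The 3 measured epithelial markers, KRT8, KRT18 and CLDN7, summed to 15527 CPM in the CDH16 and 2309 in the AKR1C3 members. Their sum was 4043 CPM in the SNAI2, 6783 in the FXYD4 and 3670 in the MMRN1 members, against 1444 in the other kept barcodes. The 10 measured trophoblast markers, SMPDL3A and PAG6 included, summed to 217 CPM in the CDH16 members, with TFAP2A, TFAP2C and HAND1 at 0. GATA2 was at 91.2 CPM there against 59.5 in the other kept barcodes, the only marker of the list that was higher. In the AKR1C3 members the 10 summed to 106 CPM, with GATA3, TFAP2A and TFAP2C at 0. The 10 markers summed to 549 CPM in the SNAI2, 555 in the FXYD4 and 5193 in the MMRN1 members, where PLET1 gave most, against 5134 in the other kept barcodes. The rule held SMPDL3A and PAG6 low in the members, and in the other kept barcodes these were at 1363 and 656 CPM. The part that transcripts from other cells had in the score of the shallow members was not tested.

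Summed over all 253 members, 92 of 3053 genes (3.01%) were at least 4-fold higher than in the other 8415 kept EIS barcodes, and 97 (3.18%) at least 4-fold lower. A gene was counted with at least 30 UMIs in the 2 sums and at least 50 CPM in the higher, and the 7 rule genes were left out. The members were chosen from the same barcodes, so these counts describe the set and are no test. With totals taken without genes above 1% of either sum, which lowered every log2 ratio by 0.18, the counts were 79 higher and 157 lower. Without the CDH16 members they were 58 and 46, and without both deep clusters 36 of 2694 (1.34%) and 25 (0.928%). For the counts of 79, 157, 58 and 46 the number of genes counted is not given here.

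The leading genes of the pooled set split between the deep clusters. AGR2, a protein disulphide isomerase of secretory epithelia, was at 1585 CPM against 93.7, 16.9-fold (95% interval 16.1 to 17.8) higher, with 1150.4 CPM in the CDH16, 3495 in the AKR1C3 and 421 in the 190 other members. S100A2, a calcium-binding protein of squamous and basal epithelia, was 14.3-fold (95% interval 13.6 to 14.9) higher in the pool. It was at 5378 CPM in the AKR1C3 members, had 0 UMIs in the CDH16 members and was at 172 CPM in the others. Without the AKR1C3 members the pooled S100A2 ratio turned below 1 (log2 ratio -0.34), as did those of PTGS2 (-0.55) and COL17A1 (-0.63).

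CDH16, a cadherin of kidney tubules, was 14.1-fold (95% interval 12.6 to 15.7) higher in the pool, at 678 CPM in the CDH16, 25.6 in the AKR1C3 and 196 in the other members. FXYD4, a regulator of the sodium pump in the kidney collecting duct, was 10.8-fold higher, and ATP1B1, the pump's beta subunit, 8.68-fold. UPP1, a uridine phosphorylase, was 10.5-fold higher in the pool and at 651 CPM in the AKR1C3 members, 14.7 in the CDH16 and 27.4 in the others. MMP7, a matrix metalloproteinase of epithelia, was 6.35-fold higher and at 663, 1.63 and 65.7 CPM in the same order. UPTI, a trypsin inhibitor of the pregnant pig uterus, was 8.19-fold higher and was the second most abundant symbol of the set at 53590 CPM, after SLPI at 59314.

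The other leading genes, apart from TSTD1, were higher in the CDH16 members than in the AKR1C3 members. LGALS3, a galactoside-binding lectin, was 7.81-fold, DEFB1, an antimicrobial defensin, 7.13-fold, THBS1, a matrix glycoprotein, 6.9-fold and KRT8, a keratin of simple epithelia, 6.7-fold higher in the pool. ANXA1, a phospholipid-binding protein, was 6.53-fold, SFN, an epithelial 14-3-3 protein, 5.99-fold, ATP6V1G3, a subunit of the proton pump, 5.5-fold and the serine protease PRSS23 5.11-fold higher. KRT18 (4.99-fold), the prostaglandin E synthase PTGES (4.83-fold) and the chromatin remodeller SMARCA1 (4.68-fold) followed. TSTD1 was 4.28-fold higher and, with similar levels of 891 and 824 CPM, divided less between the clusters. CHCHD10, TMEM9, PLS1 and TTPA completed the 25 at 3.51- to 3.87-fold.

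**Figure D4:**
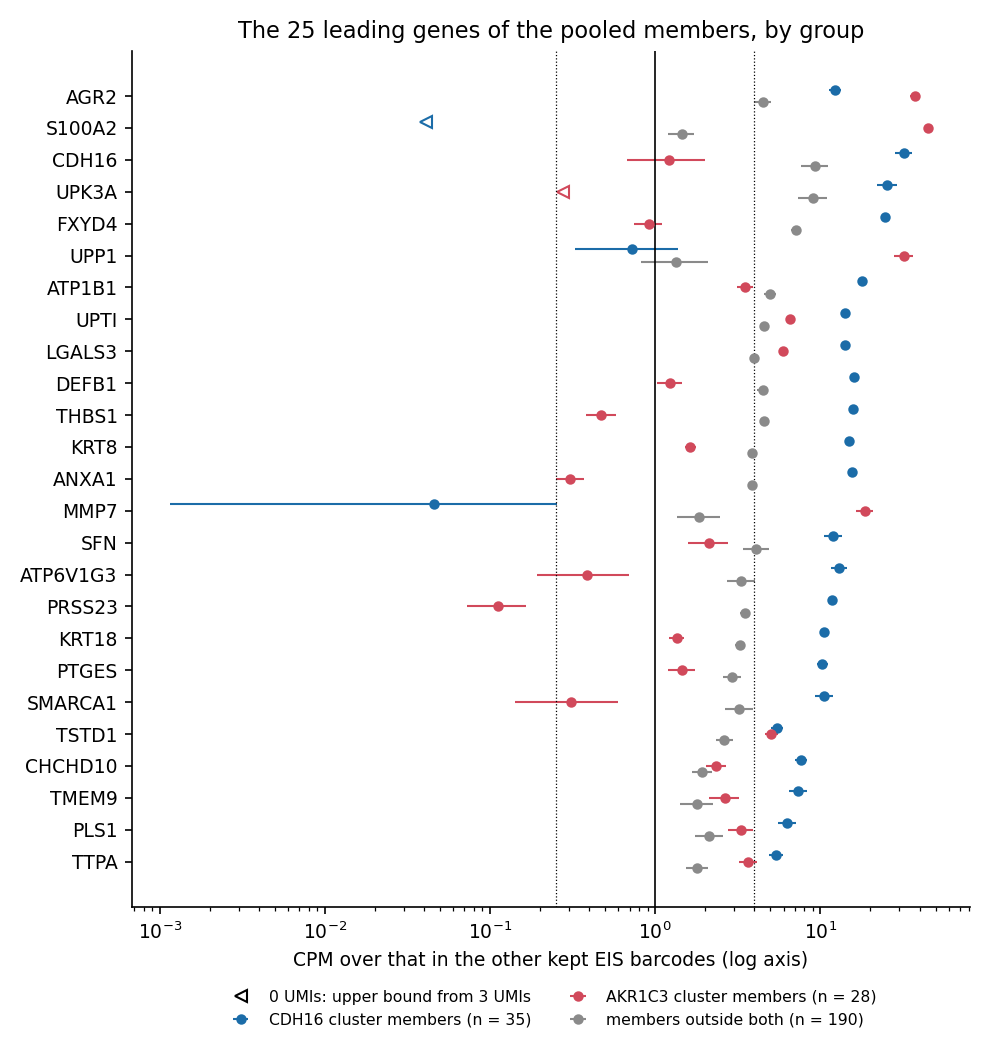
Ratio of CPM over the 8415 other kept EIS barcodes (x axis, log) for the 25 genes of largest ratio in the pooled members, given for the CDH16 members, the AKR1C3 members and the other 190, with exact 95% intervals, an open triangle for an upper bound where none was found, a line at 1 and dotted lines at 4-fold either way. S100A2, UPP1 and MMP7 are high in the AKR1C3 members and not in the CDH16 members, CDH16, FXYD4 and THBS1 the reverse, and AGR2, UPTI, LGALS3 and TSTD1 are above 4-fold in both.

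The 10 genes of smallest ratio in the pool included genes known from trophoblast, immune cells and glands. SAL1, a lipocalin of the uterine glands, was at 19.2 CPM against 396, 20.7-fold (95% interval 15 to 29.4) lower, and PLET1, a placental surface protein, at 257 against 2629.5, 10.3-fold (95% interval 9.38 to 11.2) lower. The chemokine CCL5 was 10.3-fold, CCL4 7.07-fold and RGS1, a signalling regulator of lymphocytes, 7.92-fold lower. PLBD1, FABP5, DPPA5, MT1D and MT1A were 5.3- to 9.29-fold lower. The choice of barcodes with few glycoprotein transcripts bears on the trophoblast genes among these.

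The 548 EIS barcodes with a score of at least 4 and at least 3 glycoprotein UMIs are called the same-score barcodes. They met the same minimum but were not matched on the score: the 5 genes summed to 1203 CPM in them and 2750 in the members. Against these, 11 of 3007 genes (0.366%) were at least 4-fold higher in the members and 88 (2.93%) at least 4-fold lower. S100A2 was 5.28-fold (95% interval 4.93 to 5.64) higher, UPP1 5.2-fold (95% interval 4.3 to 6.31), AGR2 3.96-fold (95% interval 3.72 to 4.21) and MMP7 3.37-fold (95% interval 2.87 to 3.95). Without the AKR1C3 members S100A2 and UPP1 reversed, to log2 ratios of -1.78 and -0.92. AKR1C3, a reductase of steroids and prostaglandins, HPGD, which breaks down prostaglandins, the water channel AQP8 and the complement protease CFD were 2.61- to 3.26-fold higher, LGALS3 2.51-fold and CDH16 2.73-fold. The features ENSSSCG00025062258 and ENSSSCG00025005521, which carry no symbol, were 15.8-fold and 13.5-fold higher and are named because of their ratios.

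On the lower side, the choice by glycoprotein transcripts bears on every trophoblast gene. CYP11A1, which starts steroid synthesis, was 31.2-fold (95% interval 18.1 to 58.8) lower, RNASE1 24.3-fold, PLET1 20.5-fold and PLBD1 19.7-fold. CHGA, NPL, FABP5, CITED1 and DPPA5 were 8.97- to 16.7-fold lower. The uroplakin genes outside the rule differed less: UPK3A was at 215 CPM in the members and 99.2 in the same-score barcodes, 2.16-fold (95% interval 1.87 to 2.5) higher. UPK2, a rule gene, was at 451 and 227 CPM in the same order. In the CDH16 members alone UPK3A was at 474 CPM, and in the 190 members outside both deep clusters at 168.

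Genes named for a single cluster below were chosen after their values were seen, and a cluster is no test of the genes that made it. In the CDH16 members, 269 of 3421 genes (7.86%) were at least 4-fold higher than in the other kept EIS barcodes and 419 (12.2%) at least 4-fold lower. CDH16 itself was detected in 34 of 35 (lowest 0, median 10, highest 31 UMIs) and was 32.1-fold (95% interval 28.3 to 36.2) higher. FXYD4 was detected in 33 (median 68, highest 244 UMIs) at 4911 CPM, 24.6-fold (95% interval 23.6 to 25.7) higher, and ATP1B1 in 35 (lowest 2, median 40, highest 215) at 2793 CPM, 18-fold (95% interval 17 to 19) higher. KRT8 was detected in 35 (lowest 1, median 185, highest 423) at 10229 CPM and UPTI in 35 (lowest 10, median 1200, highest 4404) at 92145 CPM. Keratin and trypsin inhibitor transcripts were thus detected in every CDH16 member. SULT1E1, which sulphates oestrogen, was 28.7-fold, SPTSSB, a subunit of the enzyme that starts sphingolipid synthesis, 25-fold and the extracellular protein PAPLN 14.6-fold higher. The collagen gene COL1A2 was 177-fold, DCN, a matrix proteoglycan, 185-fold, and COL5A1, PTN and SMPDL3B, each with 1 UMI in these members, 263-fold (95% interval 47.2 to 10400), 231-fold (95% interval 41.5 to 9139) and 209.5-fold (95% interval 37.6 to 8276) lower.

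Within the CDH16 cluster 7 of the 40 barcodes formed a second pattern, split here at 2 HEPACAM2 UMIs, a limit chosen after the values were seen. HEPACAM2, TMEM213, the proton pump subunits ATP6V1G3 and ATP6V1C2, carbonic anhydrase CA2, the ammonia channel RHBG and the transcription factors FOXI1, DMRT2 and HMX2 are known from acid-secreting intercalated cells of the kidney collecting duct, named here as background only. Of the 7 barcodes 3 met the rule, as did 32 of the other 33.

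The 7 barcodes had 6 to 33 HEPACAM2 UMIs each (median 13), and the other 33 had 1 in all. TMEM213 was at 4, 36, 47, 56, 106, 112 and 124 UMIs in the 7, or 4082 CPM, and at 0 to 6 in the others, or 26.6 CPM. CA2 had 4 to 67 UMIs in the 7 (1776 CPM) and 0 to 2 in the others (10.6 CPM), so the ranges did not overlap. ATP6V1C2 had 5 to 54 and 0 to 1 UMIs, and ATP6V1G3 2 to 64 and 0 to 15, with 2534 and 405 CPM. BEX4 had 327 UMIs in the 7 and 0 in the 33. DMRT2 was detected in 4 of the 7 (27 UMIs), HMX2 in 2 (29) and FOXI1 in 2 (5), and none of these 3 in the 33.

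Uroplakins ran the other way. UPK2 had 28 UMIs in 1 of the 7 barcodes and 0 to 4 in the other 6, and 2 to 55 in the 33, or 278 against 992 CPM. MAL was at 412 against 2935 CPM, and FXYD4 at 884 against 5391 CPM. The sodium channel subunit SCNN1B had 4 UMIs in the 7 and 82 in the 33, and AGR2 6 and 737. Of the 7 barcodes, 1 held 46 of the 49 MAL, 104 of the 105 FXYD4 and all 6 AGR2 UMIs. CDH16 was at like levels in both, 690.2 and 673 CPM (ratio 1.03, 95% interval 0.798 to 1.31). A single barcode of 37645 UMIs, the deepest of the cluster, carried both sets, with 106 TMEM213, 32 HEPACAM2, 28 UPK2, 104 FXYD4 and 46 MAL UMIs. Its Scrublet doublet score was 0.0306 (median over all kept barcodes 0.0526), and whether it held more than 1 cell was not tested.

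**Figure D5:**
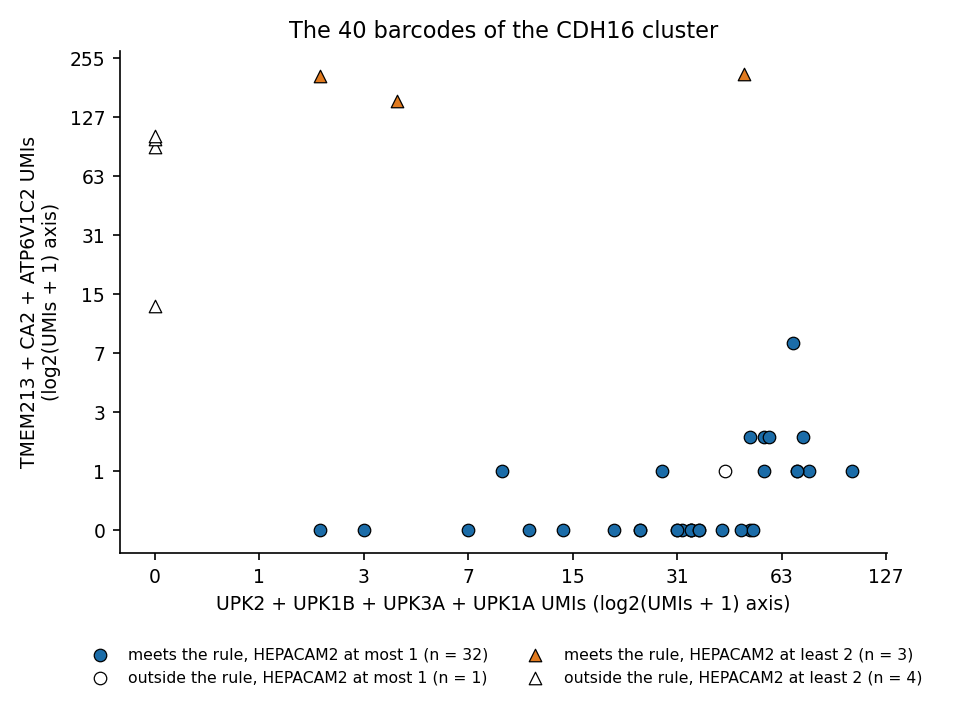
Summed uroplakin UMIs (x axis) and summed TMEM213, CA2 and ATP6V1C2 UMIs (y axis), both as log2(UMIs + 1), in the 40 barcodes of the CDH16 cluster; triangles have at least 2 HEPACAM2 UMIs and open symbols are outside the rule. The 32 circles inside the rule stay at 8 or fewer UMIs on the y axis, and 1 triangle lies high on both axes.

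The 3 members among the 7 gave 96.1% of the CDH16 members' TMEM213 UMIs and 94.2% of those of RGN, a calcium-binding protein. Without them TMEM213 was at 26 CPM and RGN at 14.9 CPM, below the 50 CPM asked of a called gene. CDH16 remained 32.5-fold, UPK3A 27.9-fold, FXYD4 27.1-fold, ATP1B1 15.7-fold and ATP6V1G3 8.49-fold above the other kept barcodes in the remaining 32.

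In the AKR1C3 members, 198 of 3251 genes (6.09%) were at least 4-fold higher than in the other kept EIS barcodes and 247 (7.6%) at least 4-fold lower. S100A2 was detected in 28 of 28 (lowest 9, median 67.5, highest 539 UMIs) and was 45.2-fold (95% interval 43.1 to 47.4) higher. AGR2 was detected in 26 (median 50, highest 394 UMIs) and was 37.3-fold (95% interval 35.3 to 39.4) higher, and UPP1 in 24 (median 3.5, highest 165) and 32-fold (95% interval 28.2 to 36.4) higher. COL17A1, the collagen of hemidesmosomes, was detected in 19 (median 2.5, highest 19 UMIs) and was 36.9-fold (95% interval 29.2 to 46.5) higher. A single barcode gave 43.3% of the UPP1 UMIs and a single barcode 40.6% of the 180 PTGS2 UMIs. MMP7 was 18.6-fold, the prostaglandin synthase PTGS2 15.7-fold, PDZK1IP1 17.2-fold, CFD 7.7-fold and HPGD 7.37-fold higher. UPK3BL2, annotated by name as a uroplakin-like gene, was 19.3-fold higher, at 210.2 CPM, with 0 UMIs in the CDH16 members. PTN and SAL1, with 1 UMI each, were 221-fold (95% interval 39.6 to 8713) and 232-fold (95% interval 41.6 to 9163) lower, COL1A1 164-fold and C1QB and SERPINF1, again with 1 UMI each, 135-fold (95% interval 24.3 to 5349) and 158-fold (95% interval 28.4 to 6242) lower.

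The 28 members differed from the 85 other barcodes of the AKR1C3 cluster in more than CRYGS. CRYGS was detected in 11 of the 85 (lowest 0, median 0, highest 16 UMIs, 28.1 CPM), a difference the rule set. The genes given next were picked for their differences. AGR2 was at 3495 CPM in the members and 328 in the 85, S100A2 at 5378 and 1064, MMP7 at 663 and 44.9 and COL17A1 at 212 and 10.3. The signalling adaptor PIK3R1 was 7.43-fold higher in the members. AQP8 was detected in 6 of the 28 and 70 of the 85, at 706 and 2534 CPM, and AKR1C3 itself was at 1682 and 4864 CPM. A single member gave 450 of the 984 AKR1C3 UMIs (45.7%), where the median member had 3.5. IGFBP2, which binds insulin-like growth factors, was 5.37-fold, SPP1, a secreted adhesion protein, 3.99-fold and TRPV5, a calcium channel, 3.57-fold lower in the members. The members were deeper, with a median of 17567.5 UMIs against 9939, and the part of depth in these differences was not tested.

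Set directly against each other, 264 of 3528 genes (7.48%) were at least 4-fold higher in the CDH16 than in the AKR1C3 members and 419 (11.9%) at least 4-fold lower. THBS1 was 33.6-fold (95% interval 27.4 to 41.8) higher, ANXA1 51-fold (95% interval 41.9 to 62.6) higher and FXYD4 26.9-fold (95% interval 22.1 to 32.9) higher in the CDH16 members. S100A2, with 0 UMIs in the CDH16 members, was at least 1100.2-fold higher in the AKR1C3 members, HPGD 689-fold (95% interval 190.4 to 5696) and SPP1 118-fold (95% interval 90.1 to 158) higher. UPTI was 2.14-fold (95% interval 2.11 to 2.18) and LGALS3 2.37-fold (95% interval 2.24 to 2.52) higher in the CDH16 members, both under the 4-fold limit. For TSTD1 the ratio was 1.08, with an interval that included 1 (0.956 to 1.23).

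The members were also described by 29 gene lists, counted over genes with at least 30 UMIs in the 2 sums. Of all 14574 such genes 1.76% were at least 4-fold higher in the pooled members than in the other kept barcodes and 6.25% at least 4-fold lower. The same shares were 6.99% and 9.67% in the CDH16 members and 6.73% and 6.45% in the AKR1C3 members. Median log2 ratios over all these genes were -0.11 in the pool, 0.16 in the CDH16 and 0.17 in the AKR1C3 members. List members were chosen with earlier results of these data known, and the counts describe them.

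Among surface and barrier genes, both uroplakins outside the rule were higher in the CDH16 members and neither in the AKR1C3 members. Of 7 measured genes of urothelial differentiation, PSCA, a surface antigen of bladder and prostate, and GRHL3, a regulator of barrier epithelia, were higher in the CDH16 members (median log2 ratio 1.42), where PSCA was 26.1-fold higher. In the AKR1C3 members none of the 7 was higher and GATA3 was lower. Of the squamous and barrier genes, 4 of 13 were higher in the CDH16 members (ANXA1, PPL, S100A11 and ANXA8) and 2 lower (S100A2 and SERPINB5), with a median of 1.52. In the AKR1C3 members 5 of 14 were higher (S100A2, SERPINB2, S100A9, S100A12 and S100A8) and 0 lower, with a median of 1.78. S100A9 was at 73.5 CPM and S100A12 at 95.7, but S100A8 only at 6.84, near the 5.13 CPM of 3 UMIs. All 3 also served as neutrophil markers. Of the other neutrophil markers CSF3R was higher there than in the other kept barcodes, and CXCR2 and FCGR3A were lower. Of 9 genes of mucins and glycocalyx, 4 were higher and 2 lower in the CDH16 members and 3 higher and 0 lower in the AKR1C3 members, LGALS3 and GALNT3 being among the higher ones of both. Both measured keratins, KRT8 and KRT18, were higher in the CDH16 members and neither in the AKR1C3 members.

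Of 29 water and ion transport genes, 8 were higher in the CDH16 members, led by FXYD4, KCNJ16, ATP1B1 and the sodium channel subunits SCNN1G and SCNN1B, and 7 were lower, among them the water channels AQP3, AQP8 and AQP1. In the AKR1C3 members 5 were higher (ATP6V1B1, AQP8, KCNE3, SCNN1G and AQP7) and 4 lower. SCNN1B was at 130.3 CPM in the CDH16 members, 18.8 in the AKR1C3 members and 14 in the other kept barcodes. Of 32 nutrient transport genes, 3 were higher and 11 lower in the CDH16 members and 4 higher and 4 lower in the AKR1C3 members, where the peptide transporter SLC15A1 and the fatty acid transporter SLC27A2 were among the higher ones.

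Of 15 genes of uterine secretions, 11 were lower in the CDH16 members, with a median log2 ratio of -6.26, and LGALS3 and MUC1 were higher. The AKR1C3 members had 6 lower and 3 higher (LGALS3, SULT2A1 and AQP8), with a median of 0.16. Of 22 genes of prostaglandin and steroid metabolism, SULT1E1 and PTGES were higher and 8 lower in the CDH16 members, HPGD, PTGS2 and the oestrogen receptor ESR1 among the latter. Among the AKR1C3 members PTGS2, HPGD, HSD17B7, SULT2A1 and CBR1 were higher and 4 were lower. PTGES was at 1409 CPM in the CDH16 and 198 in the AKR1C3 members, and PTGS2 at 3.26 and 308 CPM.

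Of 22 trophoblast genes, 2 of the list's own being rule genes and left out, THBS1 and ELF5 were higher and 8 lower in the CDH16 members, and 0 higher and 10 lower in the AKR1C3 members. HAND1, a trophoblast and mesoderm factor, PLET1, CYP11A1 and CHGA were lower in both. Of 12 allantoic and hindgut genes, 4 were higher in the CDH16 members, KRT8, KRT18 and HOXB9 among them, and FOXA2 and GATA6 were lower, and in the AKR1C3 members 0 were higher and the same 2 lower. Of 7 yolk sac genes, 0 were higher and 3 lower in the CDH16 members and 0 higher and 2 lower in the AKR1C3 members. Of 6 amnion genes, 0 were higher and 1 lower, and VTCN1 was higher and 3 lower, in the same order.

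The lists of relatives of CRYGS, TNNI2 and MAL held few genes past 4-fold. Of 3 other measured crystallins, none was higher in either cluster, and CRYAB and CRYM were lower in the CDH16 members. CRYM was at 109 CPM in the AKR1C3 members against 97.1 in the other kept barcodes. Of 7 muscle genes, TNNT1 was higher and TPM2 lower in the CDH16 members, and 0 were higher and 2 lower in the AKR1C3 members. Of 10 MAL family and raft genes, MAL2 was higher and MYADM lower in the CDH16 members, and PLLP was higher and 0 lower in the AKR1C3 members.

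The CDH16 members were low in stress and immune transcripts. Of 22 immediate early and heat shock genes, 0 were higher and 13 lower there (median log2 ratio -2.18), against 1 higher (MYC) and 1 lower (KLF6) in the AKR1C3 members (median -0.39). Of 15 interferon and antigen presentation genes, 0 were higher and 8 lower in the CDH16 members and 0 higher and 3 lower in the AKR1C3 members. Of 25 cytokine and chemokine genes, 3 were higher and 14 lower in the CDH16 members, and 3 higher, with IL6, and 10 lower in the AKR1C3 members. IL6 was detected in 14 of the 28 AKR1C3 members, and 1 barcode held 74 of its 139 UMIs. It was at 238 CPM in these members and at 700 in the 85 other barcodes of that cluster. All 29 nuclear genes of oxidative phosphorylation stayed within 4-fold in both, with medians of 1.26 and 0.68.

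Of 18 matrix and integrin genes, THBS1 and COL4A5 were higher and 8 lower in the CDH16 members, and COL17A1 and ITGB3 higher and 6 lower in the AKR1C3 members. Of 26 growth factor genes, PDGFA was higher and 6 were lower in the CDH16 members, and BMP2, WNT7A and WNT7B were higher and 2 lower in the AKR1C3 members. Of 41 epithelial transcription factors, GRHL3, ELF5 and VGLL3 were higher and 10 lower in the CDH16 members, and OVOL1 was higher and 7 lower in the AKR1C3 members. Of 17 cell cycle genes, 0 were higher in either cluster, and 1 was lower in the CDH16 and 4 in the AKR1C3 members. Of 18 junction genes, 3 were higher, CDH16 and CLDN6 among them, and 3 lower in the CDH16 members, and CLDN1 and CLDN8 higher and 2 lower in the AKR1C3 members.

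In the remaining lists few genes passed 4-fold upward. Of 18 tetraspanins 0 were higher and 4 lower in either cluster, of 21 lysosomal genes 0 were higher and 6 lower in the CDH16 and 3 lower in the AKR1C3 members, and of 8 imprinted genes 0 were higher and 3 lower in either. Of 18 glycolytic genes, 2 were higher, ENO1 among them, and 2 lower in the CDH16 members, and 1 was higher and 1 lower in the AKR1C3 members.

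In the 190 members outside both deep clusters, genes that led the CDH16 members were also above the other kept barcodes, by smaller ratios. FXYD4 was 7.13-fold (95% interval 6.68 to 7.62), CDH16 9.25-fold (95% interval 7.68 to 11.1), UPK3A 9.04-fold (95% interval 7.39 to 11) and SULT1E1 7.84-fold (95% interval 5.97 to 10.2) higher there than in the other kept barcodes, and AGR2 4.5-fold (95% interval 3.99 to 5.06). SLPI was at 147950 CPM against 159700, COL1A1 at 2918 against 2521 and TPT1, a housekeeping gene, at 3243 against 3034. The 2 deep barcodes of the FXYD4 cluster are among these 190 and held 22 and 15 of their 123 UPK3A UMIs and 3 and 25 of their 143 CDH16 UMIs.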

How the data were processed

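Single-cell RNA was counted by 10x Genomics 3′ chemistry in 1 library per sow. The deposited matrices hold whole UMI counts per gene and barcode. Their headers name cellranger 6.1.0, whereas the submitters' processing notes name Cell Ranger 2.1.1. Build and gene models were not given in the sources used here. Barcodes with at least 500 UMIs and 300 genes were kept, and rows of 1 symbol were summed.

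Counts were summed over barcodes and given as CPM, scaled to a total of 1000000. Levels carry exact Poisson, shares exact Clopper-Pearson and ratios exact conditional intervals, at 95%. Where a sum was 0, 3 UMIs gave the bound. With 1 library per group no test was made. Genes were called at 4-fold with at least 30 UMIs in the 2 sums and 50 CPM in the higher, and lists without the CPM minimum.

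EIS barcodes were log-normalised and clustered without the 7 rule genes (scanpy 1.11.5, leidenalg 0.10.2, 2000 variable genes, 30 components, 15 neighbours, resolution 1.0). Components were rounded to 3 decimals for a repeatable result, a step added after a first run, and rounding moved the borders of shallow clusters. Doublets were kept: the automatic threshold of Scrublet called 0 barcodes, so leaving out the 601 highest scores (0.8% per 1000 barcodes) was an alternative. The calculations were tested on simulated data.

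The members and lists were chosen with earlier results of these data known. Genes named are symbols without ribosomal, haemoglobin and receptor genes: the 25 of largest and 10 of smallest ratio against the other kept barcodes, the 10 of each against the same-score barcodes (at least 200 CPM and 30 UMIs), the 15 of highest level and up to 4 per list, with exceptions marked in the text. A few genes that the rule names are not reported here.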

Additional observations from a re-analysis of the deposited data

How the results depend on the processing

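No paired analysis was possible because each group is 1 sow and the results come from no test. All values rest on 1 EIS library, and 62.1% of the members' UMIs on the 63 members of the CDH16 and AKR1C3 clusters.

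The share of kept barcodes that met the rule (2.92%) became 3.70% with at least 1000 UMIs, 4.11% at a score of at least 3, 1.10% at a score of at least 8, 1.65% with 0 and 3.62% with at most 5 glycoprotein UMIs. It was 2.45% without CRYGS in the score, 2.28% without UPK2, 2.53% without TNNI2, 1.62% without MAL and 0.993% after thinning to 1000 UMIs. The share of members in the cluster that held most of them moved at a score of at least 8, to 32.6%, when that cluster was the CDH16 cluster.

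Against the other kept barcodes (92 genes higher, 97 lower), 222 were lower at a score of at least 8, 56 with at most 5 glycoprotein UMIs, 157 with totals without genes over 1% and 169 with 10% free RNA removed. With each barcode weighted equally 53 were higher. With no CPM minimum 257 of 14574 genes (1.76%) were higher and 911 (6.25%) lower, against 3.01% and 3.18% of 3053 genes with it. Against the same-score barcodes 11 of 3007 genes (0.366%) were higher and 88 (2.93%) lower. With equal weights 5 were higher, and 148 were lower at a score of at least 8. With no CPM minimum 22 were higher and 251 lower. Genes that met the limits for counting differed in number between settings, and that number is given only beside a share.

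The following were chosen after seeing the data. Without the CDH16 cluster, 58 genes were higher and 46 lower than in the other kept barcodes, and 34 higher than in the same-score barcodes. Without both deep clusters the same counts were 36 (1.34% of 2694 genes), 25 (0.928%) and 5. For the other counts the number of genes counted is not given here. Without the AKR1C3 cluster, log2 ratios reversed against the other kept barcodes for S100A2 (-0.34), PTGS2 (-0.55) and COL17A1 (-0.63), and against the same-score barcodes for S100A2 (-1.78) and UPP1 (-0.92). Without both clusters S100A2 was at -0.90 and UPP1 at -0.58 against the same-score barcodes. The cause was not tested. Among the values of single genes, 3177 stayed within 0.5 of the reported log2 ratio, 746 moved further and 7 reversed.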
